A study of Mus musculus with 912 samples.

Results

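The subiculum nuclei sorted as FOS+ or FOS- 1 h after exposure to a new, enriched environment (NE) were compared with each other, with home cage (HC) subiculum nuclei as a second reference. They were chosen by the labels alone, as nuclei whose predicted cell type is Sub, whose exposure is 1hr or HC and which have at least 4000 genes above a log2(TPM+1) of 1. The rule found 38 nuclei, all nuclei with that cell type label, of 360 in the HC and 1 h experiment and 912 in the series. There were 11 FOS+ nuclei (5 from mouse 2, 2 from mouse 4 and 4 from mouse 10), 13 FOS- nuclei (4 from each of these mice and 1 from mouse 5) and 14 HC nuclei (7 from HC mouse 4, 6 from HC mouse 8 and 1 from HC mouse 3).

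All mice were wild-type C57BL6 females of 8.7 to 9 weeks with no transgene. Exposed mice spent 15 min in an unfamiliar environment with huts and tunnels and 1 h back in the home cage, and HC mice stayed in theirs. Hippocampal nuclei were stained for the neuronal protein NEUN, for PROX1, CTIP2 and FOS, and each sorted nucleus became its own SmartSeq2 library. The HC subiculum nuclei were all sorted as FOS-. Gates differed between mice: the nuclei of mouse 2 and HC mouse 3 were PROX1- CTIP2+, those of mice 4 and 10 and HC mice 4 and 8 were PROX1- CTIP2-, and the nucleus of mouse 5 was PROX1+ CTIP2-. Sort day and mouse cannot be told apart within the exposed mice, and mouse 2 alone of the mice used in sums had the CTIP2+ gate. With PROX1- CTIP2- nuclei only, and against HC with sort day as a covariate, edgeR called 0 genes, as without. Every exposed mouse with FOS+ nuclei gave FOS- nuclei in the same sort.

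The subiculum is the main output region of the hippocampus: its pyramidal neurons receive CA1 axons and project to cortex, hypothalamus and thalamus, and many of them fire in bursts. When a neuron is strongly active, calcium entry and kinase signalling act on factors already bound near inducible genes, among them CREB, SRF and MEF2, and within minutes the immediate early genes are transcribed. The first of these encode transcription factors such as FOS, JUN, EGR1 and NR4A1. Others encode effectors that act at synapses, in secretion or in signalling, such as ARC, HOMER1, BDNF and VGF. FOS protein outlasts the Fos transcript, so staining for the protein and counting the RNA report on different times after activity.

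Promoters of inducible genes are shown to give the letters on which these factors act. CREB binds the cAMP response element (CRE, TGACGTCA) and, less tightly, its core TGACG. The 250 bases before the RefSeq start site (GRCm38.p6) are given 5′ to 3′ on the gene's strand, with each TGACG or its complement CGTCA in capitals. Fos is the gene whose protein was sorted on (chr12:85473640-85473889, plus strand), Jun (chr4:95052223-95052472, minus strand) and Gadd45g (chr13:51846425-51846674, plus strand) are inducible genes whose levels did not overlap between FOS+ and FOS- mice, and Hsd17b12 (chr2:94157910-94158159, minus strand) is among the genes with the smallest p-values of the comparison.
Fos: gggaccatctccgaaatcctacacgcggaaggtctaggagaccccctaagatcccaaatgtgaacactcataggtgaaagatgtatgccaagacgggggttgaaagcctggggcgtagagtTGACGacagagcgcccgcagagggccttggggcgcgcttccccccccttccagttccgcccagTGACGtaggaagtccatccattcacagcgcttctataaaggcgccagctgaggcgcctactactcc
Jun: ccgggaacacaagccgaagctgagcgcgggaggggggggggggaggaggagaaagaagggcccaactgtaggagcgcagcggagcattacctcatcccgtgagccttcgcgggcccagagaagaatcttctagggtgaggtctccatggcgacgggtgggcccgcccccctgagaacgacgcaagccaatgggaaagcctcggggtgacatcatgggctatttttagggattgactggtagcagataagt
Gadd45g: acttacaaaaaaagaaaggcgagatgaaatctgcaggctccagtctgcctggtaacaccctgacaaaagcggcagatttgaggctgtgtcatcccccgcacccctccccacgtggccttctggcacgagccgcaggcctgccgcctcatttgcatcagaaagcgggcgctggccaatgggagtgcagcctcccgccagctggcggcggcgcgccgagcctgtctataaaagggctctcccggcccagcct
Hsd17b12: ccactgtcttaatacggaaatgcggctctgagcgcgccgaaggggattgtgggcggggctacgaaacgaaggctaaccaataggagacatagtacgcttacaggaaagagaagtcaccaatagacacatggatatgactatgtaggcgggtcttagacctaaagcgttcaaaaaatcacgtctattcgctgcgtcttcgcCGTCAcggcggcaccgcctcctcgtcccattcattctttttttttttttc
Fos held 2 matches to the core, Hsd17b12 held 1, and these windows of Jun and Gadd45g held none.

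Searched on both strands in the same window, the core TGACG was in 64.4% of the 45 genes of the inducible lists described next that had a promoter in the table, in 30.6% of the 9310 genes tested here that had one and in 19.8% of all 27025 genes. The full CRE, which contains the core, was in 15.6%, 3.30% and 1.77%, and the EGR motif GCGNGGGCG was in 24.4%, 10.0% and 5.33%. The AP-1 motif TGANTCA, bound by FOS and JUN dimers, was in 4.44% of the inducible genes and in 5.48% of the genes tested, and the NR4A motif AAAGGTCA in 0 of the 45 and in 1.04%. The CArG box of SRF was in 4.44% and 1.44%. These shares describe letters in a short window. Of the 10 genes highest in FOS+ by the rule used further on, 8 had a promoter in the table and 4 of them held the core, and of the 10 lowest, 3 of 7 did.

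The labels were checked against marker genes. Levels are the mean log2(TPM+1) over the nuclei of a mouse unless another scale is named. Slc17a7, the vesicular glutamate transporter of hippocampal and cortical excitatory neurons, lay between 7.23 and 8.73 in the FOS+ mice and between 5.33 and 8.40 in the FOS- mice. The subiculum markers Fn1 and Ntng2 were present in every mouse (Fn1 4.04 to 6.39 in FOS+ and 2.69 to 7.87 in FOS-), while Cyp26b1 and Dlk1 were at 0 in both 1 h groups. The summed level of the 12 subiculum markers was 16.4 to 25.6 in FOS+, 10.6 to 25.9 in FOS- and 19.0 to 20.3 in HC. Prox1, a marker of DG granule cells that VIP interneurons also express, was at 0.09 or below in every mouse. Gad1, the GABA-synthesizing enzyme, was at 0.69 or below in the 1 h mice. The 10 CA1 markers summed to 14.0 to 25.3 in FOS+, 10.5 to 16.8 in FOS- and 16.2 to 22.0 in HC, with a median log2 fold change of 2.25 between FOS+ and FOS-. Deep cortical layer markers summed to 9.0 to 12.9, 6.0 to 10.3 and 5.8 to 7.8, interneuron markers to 2.0 to 6.6, 4.1 to 5.7 and 6.2 to 8.6, and astrocyte markers to 1.9 to 5.6, 5.0 to 5.7 and 1.5 to 3.2. Their part in the results was not tested.

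The FOS- nucleus of mouse 5 went against its label, with Slc17a7 at 0, and it enters no sum or mean here because a sum needed at least 2 nuclei. The HC nucleus of mouse 3 was left out for the same reason. The median total count per nucleus, averaged over mice, was 1347784.5 ± 331627.8 (SD, n = 3) in FOS+ and 940822.2 ± 439958.3 in FOS- (two-sided exact permutation test over mice, p = 0.2, where the smallest p of 3 against 3 mice is 0.1). Genes above a log2(TPM+1) of 1 numbered 7273 ± 864 and 6732 ± 690 (exact permutation p = 0.6). Because FOS+ nuclei were the deeper ones in the mean, counts of detected genes are also given after thinning every nucleus to 150000 counts, which all nuclei exceeded.

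Activity-inducible genes were detected in larger numbers in FOS+ nuclei than in FOS- nuclei of the same mouse. Of 64 inducible genes (26 transcription factors and 38 effectors), a FOS+ nucleus had on average 27.8 above a log2(TPM+1) of 1 in mouse 2, 29.5 in mouse 4 and 25.8 in mouse 10. A FOS- nucleus had 17.8, 20.2 and 13.8 in the same mice, and an HC nucleus 16.7 in HC mouse 4 and 19.2 in HC mouse 8. The FOS+ mice did not overlap with either other group, and the FOS- and HC mice lay in the same range (17.2 ± 3.28, n = 3, and 17.9 ± 1.73, n = 2, against 27.7 ± 1.88 in FOS+, SD). Single nuclei did overlap: the FOS- nucleus with the most had 29, in mouse 4, and the FOS+ nucleus with the fewest had 19, in mouse 2.

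**Figure D1:**
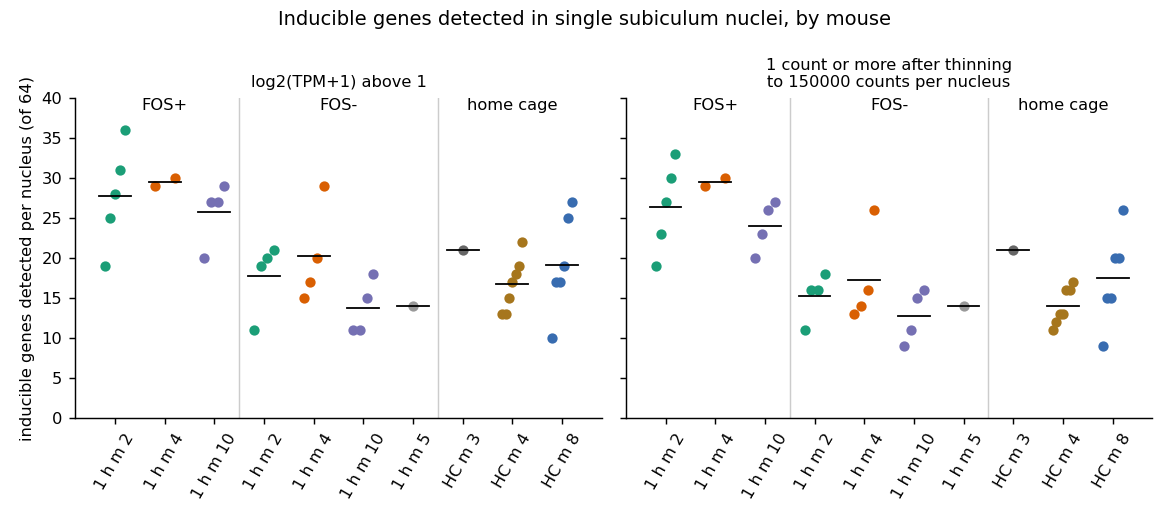
Inducible genes detected in each subiculum nucleus, of 64, by group and mouse (1 h m, mouse killed 1 h after NE; HC m, home cage mouse). Points are nuclei and lines are the mean of a mouse; the left panel counts genes with a log2(TPM+1) above 1 and the right panel genes with a count after every nucleus was thinned to 150000 counts. The means of the 3 FOS+ mice (25.8 to 29.5 on the left) lie above those of all FOS- and HC mice.

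After thinning, the means were 26.4, 29.5 and 24.0 inducible genes in the FOS+ mice, 15.2, 17.2 and 12.8 in the FOS- mice and 14.0 and 17.5 in the HC mice. FOS+ nuclei thus had 76.6% more inducible genes detected than FOS- nuclei, while over all genes they had 3.55% more (6231 against 6018 genes per nucleus). The transcription factors were detected at 8.00 ± 1.73 against 4.08 ± 1.04 per nucleus and the effectors at 18.6 ± 1.64 against 11.0 ± 1.32 (SD, n = 3 mice). No p-value is given for these scores, since the lists were put together with earlier results of these nuclei known.

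Gene by gene, no difference passed the test. Counts were summed over the nuclei of each mouse and group, and 14323 genes were tested with edgeR's quasi-likelihood test over the 3 FOS+, 3 FOS- and 2 HC sums. Between FOS+ and FOS- the share called at an adjusted p of 0.05 was 0%, the smallest adjusted p was 0.665, and before adjustment 1010 genes were under 0.05 (513 higher and 497 lower in FOS+, 3.58% and 3.47% of the genes tested). limma on the mouse means called 0 genes too, with 653 under 0.05 before adjustment, whereas DESeq2 on the same sums called 466 of the 10896 genes it gave an adjusted p, 236 higher (2.17%) and 230 lower (2.11%). The common dispersion between sums was 2.11, and each sum held 2 to 7 nuclei. The levels of single genes are therefore given as descriptions, with the mice that do or do not overlap.

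Counted over all 64 members with no filter, 45 inducible genes had a higher mean level in FOS+, 13 a lower one and 6 were at 0 in both groups (Atf3, Egr3, Ier2, Klf4, Maff and Gem). In 7 of them, 10.9%, every FOS+ mouse was above every FOS- mouse, and in 0 every FOS+ mouse was below. Over all 40198 genes with a level these shares were 1.97% and 1.43%, but most of those genes were at or near 0. Among genes with a mean level above 1 over the 8 mouse and group means, 6 of 40 inducible genes were higher without overlap beside a background of 5.75% and 0 were lower beside 3.68%. The 6 were Jun, Crem, Gadd45g, Vgf, Kdm6b and Fbxo33, and the 7th, below that level, was Inhba. The mean used as the filter includes the FOS+ mice. Jun, Gadd45g and Fbxo33, low in FOS-, passed it mainly through their FOS+ levels, so the filtered count is a description and not a test. Of the 50 members that passed edgeR's filter, 40 had a positive and 10 a negative fold change. By edgeR, 9 were higher at an unadjusted p under 0.05 and 0 lower, beside 3.58% and 3.47% of all genes tested. DESeq2 called 4 higher (Jun, Egr4, Gadd45g and Fbxo33), beside 2.17%. That filter too can let a gene in through FOS+ alone, as with Cyr61 (385 counts in FOS+, 0 in FOS- and HC). These counts and the list medians below are therefore descriptions as well.

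Among the inducible transcription factors, Fos itself shows what the sort on its protein selected. Fos RNA had levels of 5.18, 4.76 and 0.58 in the FOS+ nuclei of mice 2, 4 and 10, of 0, 1.33 and 0 in the FOS- nuclei, and of 0.27 and 1.63 in HC mice 4 and 8. It was high in FOS+ nuclei of mice 2 and 4 but near 0 in those of mouse 10, so the groups overlapped. Fos RNA was above 1 in 5 of 11 FOS+ nuclei, 1 of 12 FOS- nuclei and 3 of 14 HC nuclei. The fitted difference was 6.43 ± 2.96 (log2 fold change ± SE, edgeR adjusted p = 0.665).

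Jun, a dimer partner of FOS, had levels of 2.25, 3.41 and 1.61 in FOS+ and was at 0 in all FOS- mice, with 1.30 and 0 in the HC mice. It was detected above 1 in 4 of 11 FOS+ and 0 of 12 FOS- nuclei. Over the groups this was 816 counts against 0 (edgeR adjusted p = 0.665). At the limit of 3 counts over the FOS- group, the pooled counts are at least 227-fold higher in FOS+. This bound, like those given for other genes below, covers counting error only. It leaves out the spread between nuclei and between mice. Crem, a CREB family member with an inducible repressor isoform, had levels of 5.53, 0.97 and 1.58 in FOS+ and 0.53, 0.35 and 0 in FOS-. The HC mice, at 1.82 and 4.33, lay above all FOS- mice.

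The EGR and NR4A factors differed between mice. Egr4 had levels of 3.99, 6.15 and 0 in FOS+, against 0, 0 and 0.59 in FOS- and 0 in both HC mice, and was above 1 in 6 of 11 FOS+ nuclei. Nr4a1, an orphan nuclear receptor, had 5.08, 7.05 and 1.85 against 2.32, 2.03 and 0, higher in FOS+ in each mouse but overlapping across mice. Its relative Nr4a3 had 3.03, 6.66 and 5.09 against 0.69, 5.71 and 0.13, with the widest gap in mouse 10. Egr1, the zinc finger factor most used as an activity marker beside Fos, had 5.29, 8.84 and 0.63 against 4.53, 5.62 and 2.31, so that it was lower in the FOS+ than in the FOS- nuclei of mouse 10. Junb had 2.44, 3.55 and 3.30 in FOS+, 4.22, 2.27 and 2.05 in FOS-, and 0.83 and 1.92 in HC, which places both 1 h groups above the HC mice and not apart from each other. Btg2, an antiproliferative transcription cofactor, was at 2.10, 0 and 1.70 in FOS+ and 0.12, 4.67 and 1.81 in FOS-. Npas4 was at 0 in all FOS+ mice and at 0.11 or below in the FOS- mice. Of the 17 factors that could be tested, 14 had a positive fold change, and their median was 1.23 on the log2 scale beside -0.03 for all genes. That median was 0.75 with at least 4 nuclei per sum, which leaves out the FOS+ nuclei of mouse 4, 0.69 in limma without a filter and 1.98 in limma on log2(TPM+0.1).

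Among the effectors, Vgf had the highest level of those that did not overlap. Vgf, the precursor of secreted neuropeptides, had levels of 5.49, 8.24 and 4.67 in FOS+, 4.28, 2.56 and 2.15 in FOS-, and 3.04 and 1.69 in HC. It was above 1 in 11 of 11 FOS+ and 9 of 12 FOS- nuclei, so that the level, more than the share of nuclei, set the groups apart. Kdm6b, a demethylase of histone H3 lysine 27, had 4.67, 3.22 and 3.07 against 2.25, 2.02 and 1.93. Gadd45g, a stress sensor linked to DNA demethylation, had 3.26, 4.01 and 2.04 against 0, 0 and 0.88, and was above 1 in 4 of 11 and 1 of 12 nuclei. Fbxo33, a substrate receptor of ubiquitin ligases, had 1.19, 3.81 and 4.84 against 0.10, 0 and 0, with its highest level in the FOS+ nuclei of mouse 10.

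**Figure D2:**
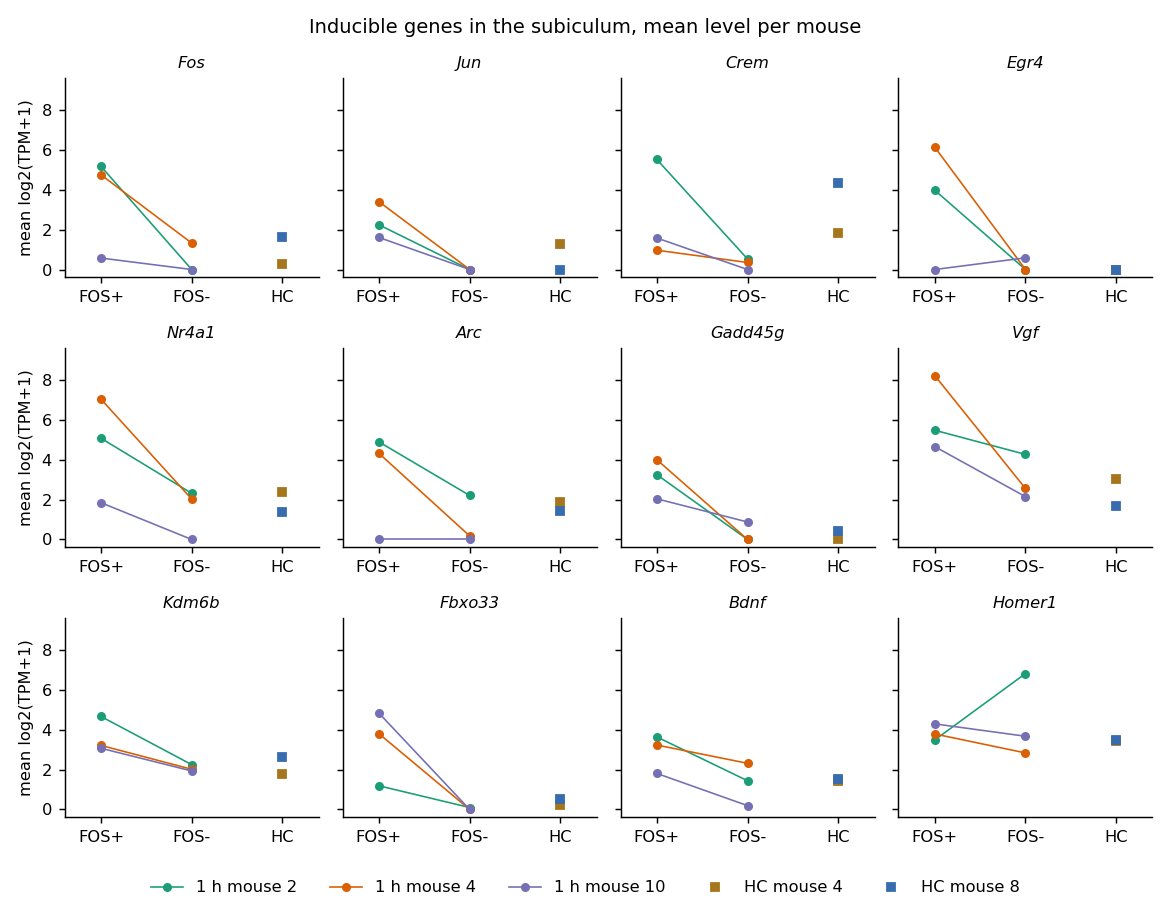
Mean log2(TPM+1) per mouse of 12 inducible genes in subiculum nuclei. Lines join the FOS+ and FOS- nuclei of the same mouse and squares are HC mice. Jun, Crem, Gadd45g, Vgf, Kdm6b and Fbxo33 do not overlap between FOS+ and FOS-, Fos and Arc are near 0 in the FOS+ nuclei of mouse 10 (0.58 and 0), and Homer1 is highest in the FOS- nuclei of mouse 2 (6.83).

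Arc, which traffics AMPA receptors away from synapses, had levels of 4.90, 4.33 and 0 in FOS+, 2.21, 0.18 and 0 in FOS-, and 1.90 and 1.41 in HC. It was above 2.5 in 4 FOS+, 1 FOS- and 4 HC nuclei, counting the single nuclei of mouse 5 and HC mouse 3, and without the FOS- nucleus 7 of 40 inducible genes were higher without overlap. Bdnf, the neurotrophin, had 3.64, 3.24 and 1.81 against 1.44, 2.32 and 0.19, higher in FOS+ in each mouse but overlapping across mice. Rasgrp1, an activator of RAS, had 4.06, 8.00 and 8.08 against 4.72, 3.77 and 3.63, and Pcsk1, a prohormone protease, had 3.29, 7.62 and 4.88 against 0.14, 4.60 and 1.08. Homer1, a scaffold whose short inducible form is counted together with the long one here, had 3.49, 3.79 and 4.30 against 6.83, 2.84 and 3.68, with HC at 3.45 and 3.51. Scg2, Spry2, Rheb, Plk2, Dusp4, Dusp6, Arid5b and Tiparp had lower means in FOS+ too. Of the 33 effectors tested, 26 had a positive fold change, with a median of 1.24. That median was 0.70 without mouse 4 and 1.88 without mouse 2, and 0.50 when each sum needed at least 4 nuclei, which leaves out the FOS+ nuclei of mouse 4. Setting genes at 0 in a group to their 3-count bound left the medians of both lists at 1.23 and 1.24. These few genes stayed above the medians at their bounds, so the medians could not move and the step tests nothing.

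Several inducible genes of low level were detected in FOS+ nuclei and in no FOS- nucleus. Of all 64 inducible genes, 8 were above 0 in FOS+ only and 2 in FOS- only. Over all 40198 genes these numbers were 2378 and 2187, so detection in a single group was common in both directions. Inhba, the activin subunit, was at 0.39, 0.35 and 1.47 in FOS+ and 0 in all FOS- and HC mice, from 14 counts. Cyr61, Trib1 and Pim1 had 385, 660 and 83 counts over the FOS+ sums and 0 over the FOS- sums, at least 107-fold, 184-fold and 23.1-fold higher at the limit of 3 counts over the group, but each was at 0 in a FOS+ mouse. Ptgs2 and Nfil3 were found in the FOS+ nuclei of mouse 4 only (3.54 and 2.87).

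The number of inducible genes above in every mouse depended on the libraries and the level chosen. Without mouse 10 it was 13 of 40, beside a background that also went up, to 16.4%. With the single nucleus of mouse 5 as a further FOS- mouse it was 4 (background 3.99%), with all nuclei thinned 6 (4.94%), and among genes with a mean level over 2 it was 2 of 21 (6.28%). In each of these settings 0 were lower in every mouse.

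The HC mice gave a second reference for the same genes, tested by edgeR over the same sums with 0% called, against HC, in FOS+ (smallest adjusted p 0.932) and in FOS- (0.965). Unadjusted p-values under 0.05 were found for 658 genes in FOS+ (1.46% of the genes tested higher and 3.13% lower) and for 634 in FOS- (1.21% and 3.22%). DESeq2 called 260 genes between FOS+ and HC (1.17% higher and 1.21% lower) and 245 between FOS- and HC (1.05% and 1.15%). Over all 64 inducible genes, FOS+ was above HC in 47 and below in 10, and FOS- was above HC in 30 and below in 25. Of the 40 genes with a level, 14 were higher in every FOS+ mouse than in both HC mice and 0 lower, beside 12.0% and 6.42% of all genes. FOS- mice were higher for 5 and lower for 3, beside 9.66% and 7.58%. The median log2 fold change of the transcription factors was 2.34 for FOS+ against HC and 1.20 for FOS- against HC, and that of the effectors 1.03 and 0.04, beside 0.03 and 0.06 over all genes. The comparisons share mice, so these values are given side by side only. Fosl2, Junb, Nr4a2 and Rheb were the genes for which FOS+ and FOS- mice all lay above both HC mice used in means. The single nucleus of HC mouse 3, left out of the means, had 1.49, 0.86, 6.90 and 6.64 for these genes. For Nr4a2 and Rheb that was above every 1 h mouse. The share of all genes with this order is not given here. For Nr4a2 the levels were 5.60, 6.64 and 3.02 in FOS+, 4.56, 2.96 and 3.30 in FOS- and 2.70 and 2.33 in HC, and for Rheb, the GTPase that activates mTORC1, 3.26, 4.25 and 4.87, then 4.47, 3.82 and 4.44, then 2.62 and 2.5.

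Other gene lists placed the inducible genes in a wider set. The study had picked lists of genes from DG granule cell nuclei sorted after NE, an early list of 252 genes, a sustained list of 107 and a late list of 129, and a list of 39 genes from FOS+ CA1 nuclei. They were chosen on other nuclei of this series, in part from the same mice, and share genes with the inducible lists. Of the sustained list 73 of 103 genes tested had a positive fold change in the subiculum and 30 a negative one (median 0.68), and 16 of 95 with a level were higher in every FOS+ mouse and 0 lower. Without the inducible genes this was 15 of 84 and 0, and the median was 0.67. Of the early list 152 of 231 were positive (median 0.42), 23 of 206 were higher without overlap and 6 lower. Of the late list 59 were positive and 60 negative (median -0.04, and from -0.15 to 0.09 with a mouse left out), with 2 of 108 higher and 7 lower. The CA1 list holds genes that differ in either direction in CA1, where 26 of its 39 genes were higher without overlap in FOS+ and 7 lower, so its median cannot be read like those of the other lists. In the subiculum 25 of its 38 genes tested were positive (median 0.48, and 0.20 without mouse 4), with 3 higher and 2 lower. The backgrounds are again 5.75% and 3.68%, and edgeR called 0 genes of any list.

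**Figure D3:**
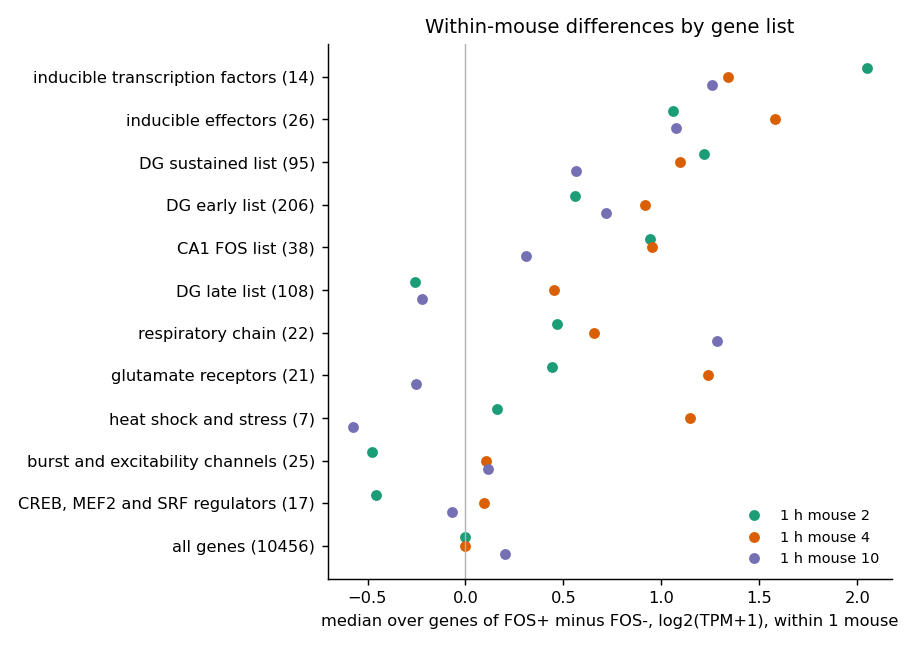
Median over the genes of a list of the difference in mean log2(TPM+1) between the FOS+ and FOS- nuclei of a mouse, for each of 3 mice (colours, set apart vertically). The number of genes with a level above 1 is given beside each list. The transcription factors (1.26 to 2.05) and effectors (1.06 to 1.58) are above the medians of all genes (0 to 0.20) in each mouse, the late list is on both sides of 0 (-0.26 to 0.45).

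The number of genes detected per nucleus was also compared after thinning. FOS+ nuclei had 27.6% more genes of the sustained list, 23.5% more of the early list, 23.9% more of the CA1 list and 2.43% more of the late list than FOS- nuclei, beside 3.55% more of all genes. The core TGACG was in 48.9% of the early, 45.1% of the sustained, 64.3% of the CA1 and 21.3% of the late genes that had a promoter in the table.

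The factors that act upstream of the inducible genes were split between directions. Of 20 CREB, MEF2 and SRF regulators 11 had a positive and 9 a negative fold change (median 0.19), and 0 of 17 with a level separated the mice in either direction. FOS+ nuclei had 7.16% fewer of them detected. Of 24 glutamate receptor genes 22 were tested, 11 in each direction (median -0.07), and 1 of 21 with a level was higher without overlap and 0 lower, a share no larger than the 5.75% of all genes. It was Gria1, an AMPA receptor subunit, with levels of 6.01, 7.63 and 7.65 in FOS+, 5.78, 5.64 and 2.70 in FOS-, and 4.85 and 3.26 in HC. With every nucleus thinned, 0 receptor genes were higher and 1 was lower without overlap.

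Of 30 channels of bursting and excitability 27 were tested, 12 in the positive and 15 in the negative direction (median -0.29). Cacna1g, the T-type calcium channel that supports burst firing, was higher without overlap (3.41, 8.57 and 2.61 against 1.81, 2.17 and 2.02), as were the R-type calcium channel Cacna1e (7.57, 8.36 and 8.14 against 7.47, 7.16 and 5.86) and the large-conductance potassium channel Kcnma1 (6.06, 5.36 and 6.01 against 2.85, 5.26 and 4.14). Kcnj6, a G protein-gated potassium channel that lowers excitability, was lower (3.21, 0 and 2.70 against 5.41, 3.29 and 4.01). These are 3 and 1 of 25 genes with a level, beside 5.75% and 3.68% of all genes, which puts the gene that was lower at the background. With every nucleus thinned it was 2 higher and 2 lower (4.94% and 4.13% of all genes). With the nucleus of mouse 5 added it was 1 and 1 (3.99% and 1.22%). The unadjusted edgeR p-values of Cacna1g, Cacna1e, Kcnma1 and Kcnj6 were 0.27, 0.46, 0.45 and 0.35.

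Of 22 genes of the respiratory chain 14 were positive and 8 negative (median 0.51), 0 were called by edgeR, and 3 were higher without overlap and 0 lower, beside 5.75% and 3.68% of all genes. They were detected at 13.6 ± 0.53 against 11.6 ± 1.23 per thinned nucleus (SD, n = 3 mice), 17.4% more in FOS+ beside 3.55% more of all genes. Sdha, the flavoprotein of complex II, had 6.96, 7.94 and 8.93 in FOS+, 4.20, 4.20 and 2.97 in FOS- and 5.61 and 6.56 in HC. Cox7c had 7.02, 8.06 and 7.43 against 5.62, 2.90 and 5.61, and Ndufv1 6.17, 5.90 and 3.87 against 0.71, 2.79 and 2.04. The HC mice lay between the groups or near FOS+ for these genes, and the list's median was 0.03 for FOS+ and -0.26 for FOS- against HC. Heat shock and stress genes numbered 6 positive and 3 negative of 9 tested (median 0.15), with 0 of 7 apart. Of the 12 subiculum markers 10 were tested, 5 in each direction (median 0.10), and 2 of 7 with a level were higher without overlap and 0 lower, beside 5.75% and 3.68% of all genes. These were Nos1, the neuronal nitric oxide synthase (1.29, 2.35 and 2.08 against 0.14, 0.24 and 0.50), and S100b (2.63, 3.05 and 3.35 against 0.95, 2.58 and 0.98).

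The genes with the smallest p-values were then taken over all genes, whether on a list or not. With 0 genes past the threshold, the 10 with the smallest unadjusted edgeR p in each direction among genes whose mice did not overlap are described, and all of them missed the threshold (adjusted p = 0.665 for each). The 10 highest were Nnat, Hsd17b12, Slc6a8, Ctu2, Zfp365, Fbxo33, Rgs12, Rab11b-ps2, B4galt2 and Etv3. Fbxo33 is on the inducible effector list, Etv3 on the early list, and Hsd17b12 and Slc6a8 on the sustained list.

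Slc6a8, the creatine transporter (chrX:73673150-73682502, plus strand, GENCODE vM21 on GRCm38), had levels of 8.19, 4.53 and 5.99 in FOS+, 1.09, 0.20 and 0.33 in FOS-, and 0.98 and 3.68 in HC. It was above 1 in 10 of 11 FOS+, 3 of 12 FOS- and 4 of 14 HC nuclei, and its log2 fold change was 7.90 ± 1.44 (SE). Hsd17b12, a reductase of fatty acid elongation (chr2:94032689-94157964, minus strand, same build), had 6.70, 4.16 and 5.26 in FOS+, 0.30, 0.55 and 0.31 in FOS-, and 2.28 and 3.25 in HC, with 8 of 11, 3 of 12 and 9 of 14 nuclei above 1.

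For other genes of this group the HC mice were on the FOS+ side. Nnat, an imprinted proteolipid of the endoplasmic reticulum, had 2.25, 6.52 and 7.34 in FOS+ and 0.92, 0.36 and 1.45 in FOS-, but 5.58 and 7.07 in HC. Zfp365, a zinc finger protein linked to genome stability, had 3.13, 4.37 and 4.90 against 0.19, 0.28 and 0.83, with 3.54 and 4.61 in HC. For both, the FOS- mice were below both HC mice, an order seen in 7.58% of all genes with a level. Because the genes were chosen for low FOS- beside FOS+ values, this does not show which group changed. Rgs12, a regulator of G protein signalling, and B4galt2, a galactosyltransferase, were at 0 in all FOS- mice (at least 355-fold and 158-fold higher in FOS+ at the limit of 3 counts over the group) and at 1.17 to 2.32 in the HC mice. B4galt2 was above 1 in 3 of 11 FOS+ nuclei and Rgs12 was at 0 in several, so few nuclei carry these bounds. Rab11b-ps2 is a processed pseudogene and may hold reads of its parent gene, so its value is uncertain.

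The 10 lowest were Sirt4, Tvp23a, Gm20681, Fstl5, Zfp93, Nubp1, BC030499, Cab39l, Ccdc186 and Lrrtm1. Sirt4, a mitochondrial sirtuin, had 0.20, 0 and 0 in FOS+ and 3.37, 2.87 and 3.86 in FOS-, with 1.06 and 4.44 in HC. Lrrtm1, a synaptic adhesion protein, had 1.78, 0.59 and 0.51 against 2.20, 4.74 and 3.89, with 5.46 and 2.97 in HC. Fstl5, a secreted follistatin-like protein, was at 0 in all FOS+ mice and at 2.13, 1.17 and 1.77 in FOS-, at least 270-fold lower at the limit of 3 counts over the FOS+ group. Its FOS- level came mostly from a single nucleus of each mouse (7.67 in mouse 2, 4.68 in mouse 4 and 7.06 in mouse 10). Of these genes BC030499 alone was detected in all nuclei of both groups (3.92, 3.70 and 4.52 against 5.41, 6.98 and 8.48). Tvp23a and Nubp1 overlap in part on opposite strands of chromosome 16. As the libraries carry no strand, reads of the shared stretch cannot be told apart. In all 10 of these genes both HC mice were above every FOS+ mouse, an order seen in 6.42% of all genes with a level. The genes were chosen for low FOS+ values, several at or near 0. This order therefore follows largely from the choice and adds no separate evidence from HC.

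**Figure D4:**
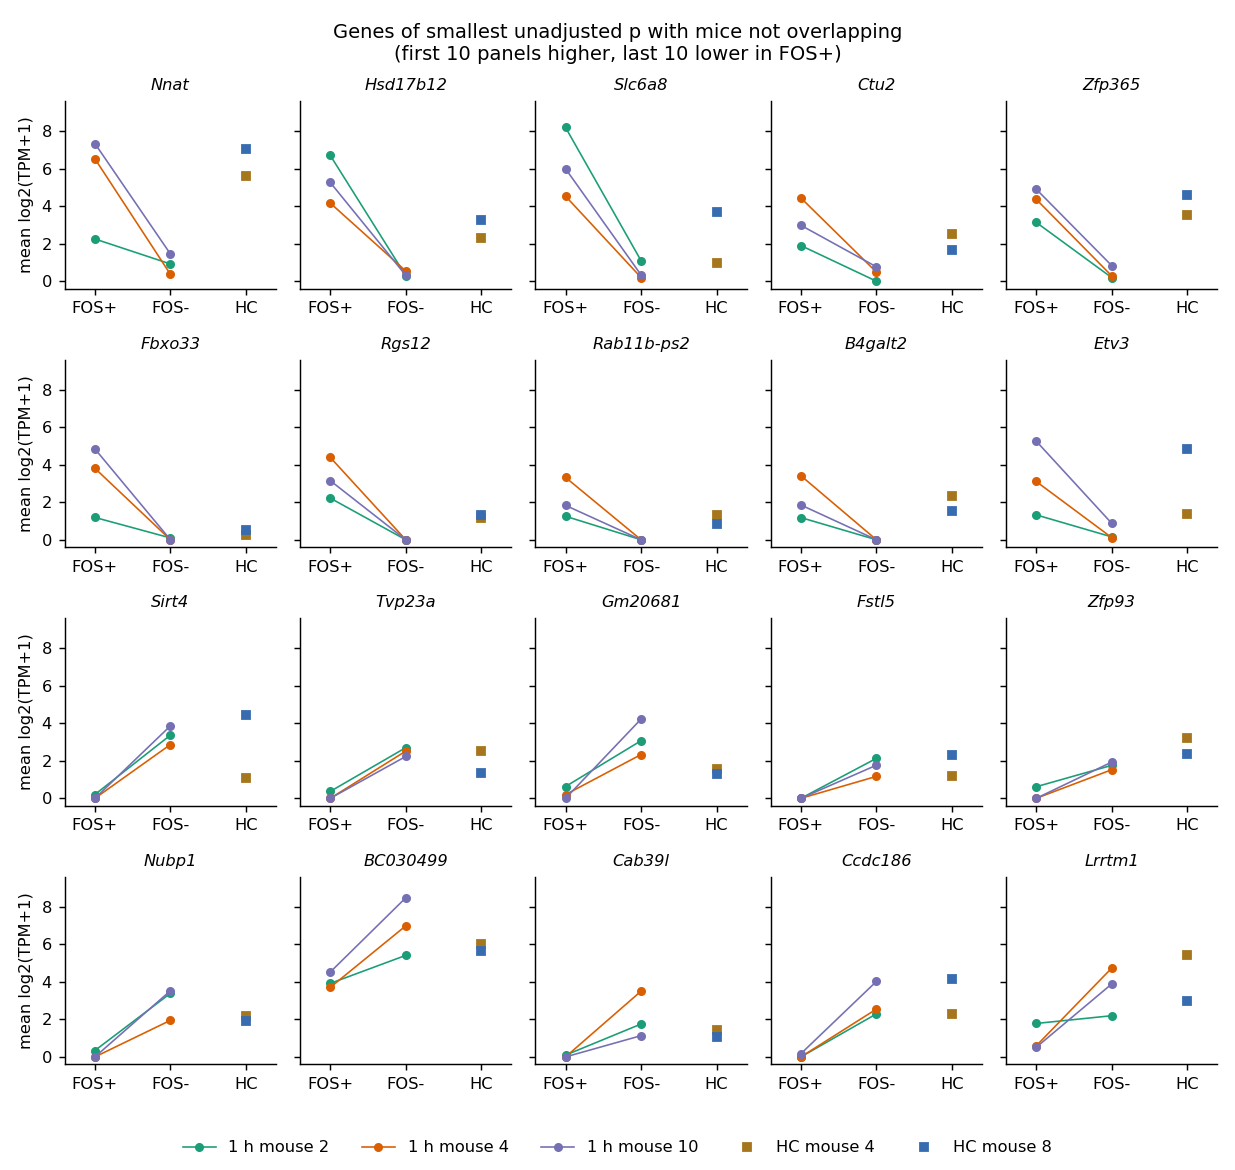
Mean log2(TPM+1) per mouse of the 10 genes higher and the 10 genes lower in FOS+ subiculum nuclei with the smallest unadjusted p among genes whose mice did not overlap. Lines join nuclei of the same mouse and squares are HC mice. For Nnat and Zfp365 the HC mice (5.58 and 7.07; 3.54 and 4.61) are at the level of FOS+, for Hsd17b12 they are between the groups (2.28 and 3.25), and for Slc6a8 HC mouse 8 is between them (3.68) and HC mouse 4 (0.98) is within the FOS- range.

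Members of other lists with an unadjusted edgeR p under 0.01 (all with an adjusted p of 0.665) added Efhd2 of the sustained list (1.21, 0.42 and 2.27 in FOS+ against 0 in FOS-, and 0.98 and 1.91 in HC), the CA1 marker Pou3f1 (0.07, 0 and 0 against 1.18, 1.36 and 1.84), Rasgrf2 (0.05, 0 and 0 against 0.33, 3.30 and 3.85) and Rnf182, of the CA1 and CA3 lists (0.29, 0.33 and 1.09 against 2.12, 2.16 and 3.02). Camk2a, the kinase abundant in excitatory neurons, had 7.39, 7.01 and 7.78 against 8.71, 7.56 and 8.55, lower in FOS+ in each mouse with a log2 fold change of -1.63 ± 0.42 (SE, edgeR adjusted p = 0.665). It was above 1 in all nuclei of both groups, so that the nuclei differed in level and not in detection.

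CA1 nuclei of the same 3 mice were the nearest comparison, with 33 FOS+ and 32 FOS- nuclei. In CA1, 28 of the 40 inducible genes with a level there were higher in every FOS+ mouse and 0 lower, beside 6.12% and 5.10% of all genes, where the subiculum had 6 of 40. In CA3, with 13 and 10 nuclei of 2 mice, it was 16 of 39 and 0, beside 16.6% in each direction. The CA1 means rest on about 3 times as many nuclei per group, and the part of nuclei number in this was not tested. The difference itself, FOS+ minus FOS- in the subiculum against the same in CA1, was tested as an interaction by edgeR over 21495 genes in 22 sums, with 0% called (smallest adjusted p 0.619). Unadjusted, 1671 genes were under 0.05, 4.02% of the genes tested with the larger difference in the subiculum and 3.75% with the smaller, and DESeq2 called 713 (2.29% and 2.12%). Against CA3 it was also 0% (smallest adjusted p 0.784), with 1363 genes under 0.05 unadjusted (3.02% and 3.32%) and 833 called by DESeq2 (2.62% and 2.87%).

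**Figure D5:**
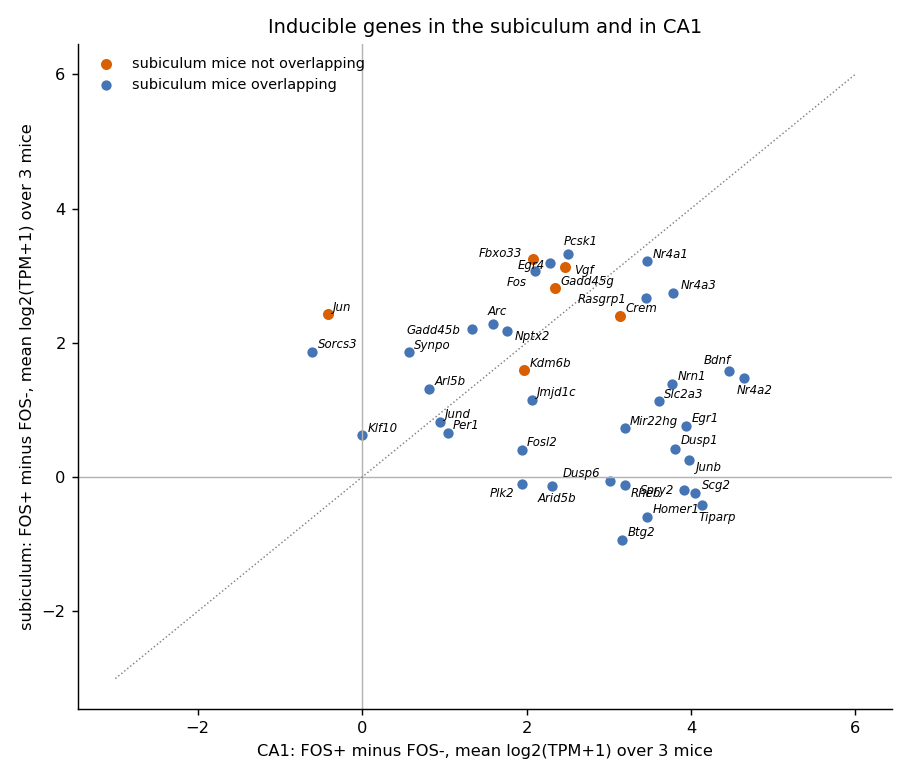
Difference in mean log2(TPM+1) between FOS+ and FOS- nuclei of 3 mice, in CA1 (horizontal) and in the subiculum (vertical), for the inducible genes with a level above 1 in the subiculum. The dotted line marks equal differences, and orange points are genes whose subiculum mice did not overlap. Jun has a difference of 2.42 in the subiculum with a lower FOS+ than FOS- mean in CA1, and Tiparp, Homer1, Scg2 and Spry2 lie near 0 or below it in the subiculum and above 3 in CA1.

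Homer1, Bdnf and Scg2 differed without overlap in CA1 and overlapped in the subiculum. Homer1 had levels of 7.59, 5.88 and 6.47 in FOS+ and 4.38, 1.88 and 3.28 in FOS- CA1 nuclei, where its subiculum mean was lower in FOS+ (interaction -2.26 ± 1.16, log2 ± SE, edgeR adjusted p = 0.679). Bdnf had 5.97, 7.01 and 6.18 against 1.73, 2.98 and 1.05 in CA1, and was higher in FOS+ in each mouse in the subiculum too (interaction -2.63 ± 1.83, adjusted p = 0.852). Scg2, a granin of dense-core vesicles, had 7.14, 6.40 and 7.81 against 4.09, 2.00 and 3.13 in CA1 and 4.35, 8.21 and 0.57 against 5.55, 3.98 and 4.30 in the subiculum (interaction -3.14 ± 1.81, adjusted p = 0.738).

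Jun showed the opposite order in its means, with 0.51, 0.07 and 1.31 in FOS+ and 0.57, 1.70 and 0.88 in FOS- CA1 nuclei. The CA1 mice overlapped, and mouse 10 was higher in FOS+. Its interaction was 11.64 ± 3.70 (log2 ± SE, edgeR adjusted p = 0.619). The size of that value rests on 0 Jun counts in the subiculum FOS- group and is not a measured fold change. Slc6a8 had 2.08, 1.60 and 0.37 against 1.75, 0 and 2.65 in CA1 (interaction 8.65 ± 2.74, adjusted p = 0.619). Vgf, Kdm6b, Gadd45g, Fos and Nr4a1 had higher means in FOS+ in both regions. Vgf had 3.68, 3.04 and 4.39 against 1.59, 1.03 and 1.10 in CA1, and Kdm6b 4.65, 3.56 and 3.80 against 2.62, 1.32 and 2.14, both without overlap, as in the subiculum.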

How the data were processed

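Single hippocampal nuclei were sequenced as single-end SmartSeq2 libraries without strand. Reads were trimmed by the authors (Solexa-QA++) and aligned to mm10, with an Ensembl annotation whose release is not given in the sources used here, and genes were counted with RSEM. The authors deposited expected counts, rounded to whole numbers, and log2(TPM+1) values for the same nuclei. Cell types are the authors' prediction, from their clustering and a random forest. They left out FOS- nuclei with an Arc level over 2.5, which here was an alternative.

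Counts were summed over the nuclei of a mouse and group where at least 2 were present, giving 8 sums, filtered with filterByExpr, scaled by TMM and tested with edgeR 4.0.16 (quasi-likelihood, Benjamini-Hochberg adjusted p of 0.05). DESeq2 1.42.0, limma 3.58.1 on mouse means and a replicate block for the mouse were alternatives. The test of the difference from CA1 and CA3 used 1 fit over 22 sums. Levels were described for genes with a mean log2(TPM+1) over 1. FOS+ and FOS- nuclei of a number came from the same animal by the labels. The correlation of their deviations from the group means was 0.032 to 0.0463, under 0.1. Between different mice it was -0.0312 to -0.00874, below every value of the same mouse. With a mouse as the replicate, the tests weigh a difference against the spread between sums. That spread mixes differences between mice with the sampling of few nuclei per sum, and with gate and sort day. Counts include PCR copies, so bounds cover counting error only. Scripts were tested on simulated data. A total of 74 alternatives were planned and 6 added after seeing the data.

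The members and gene lists were chosen with earlier results of these data known. Genes were named by rule: all inducible genes, the 10 in each direction with the smallest unadjusted p among genes whose mice did not overlap (since 0 passed), and members of other lists with an unadjusted p under 0.01, at most 4 a list. Genes of the other lists and markers that separated the mice, the genes set beside CA1 and the motif searches were chosen after values were seen. Promoters were read from a RefSeq table and gene positions from GENCODE vM21.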

Additional observations from a re-analysis of the deposited data

Results flagged for a closer look

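Tiparp, a poly-ADP-ribose polymerase on the inducible effector list, was picked out because its FOS+ nuclei were below the FOS- nuclei in every mouse in the subiculum and above them in every mouse in CA1 and CA3. In the subiculum its levels were 0.73, 1.68 and 0.11 in FOS+ and 1.02, 2.56 and 0.16 in FOS- (mice 2, 4 and 10), with 2 of 11 and 3 of 12 nuclei above 1, and in CA1 they were 5.34, 6.48 and 2.99 against 1.38, 0 and 1.02. The mean difference within mice in the subiculum minus that in CA1 was -4.546 in log2(TPM+1), and minus that in CA3 it was -1.505. These values of the pattern were not tested. The edgeR interaction, which missed the threshold, was -4.57 ± 3.03 (log2 ± SE, adjusted p = 0.821) against CA1 and -3.31 ± 3.33 (adjusted p = 1.00) against CA3.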

How the results depend on the processing

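The count of 0 genes called by edgeR was kept in every comparison with any mouse left out, and with the replicate block (0 calls, 270 genes at an unadjusted p under 0.05 between FOS+ and FOS-), so the pairing changed no call. DESeq2 called 466 genes between FOS+ and FOS-, 260 between FOS+ and HC, 245 between FOS- and HC, and 713 and 833 for the difference from CA1 and CA3. limma with no filter on level called 1, 50 and 47 in the first 3 of these. Median log2 fold changes of lists moved in size. For the effectors the median was 0.50 with at least 4 nuclei per sum, 1.91 with limma on log2(TPM+0.1), and 0.70 to 1.88 with a mouse left out. For the early list it was 0.75 with limma on genes with a mean over 1 and 1.04 on log2(TPM+0.1). For the sustained list it was 0.92 when sums of 1 nucleus were kept, 0.84 and 1.25 in the same limma fits, and 0.52 to 0.81 with a mouse left out. For the late list it was 0.20 when sums of 1 nucleus were kept, -0.35 with at least 4 nuclei and 0.24 on log2(TPM+0.1), and for the CA1 list 0.88 on that scale and 0.20 to 0.57 with a mouse left out. For the transcription factors it was 0.91 to 1.73 with a mouse left out, 0.75 with at least 4 nuclei, and 0.69 and 1.98 in limma with no filter and on log2(TPM+0.1). The inducible genes higher in every mouse numbered 13 without mouse 10 and 2 among genes with a mean level over 2. Signs turned for Arid5b (-0.13), Dusp1 (0.42), Junb (0.25) and Plk2 (-0.11) in limma, for Plk2 in the replicate block (-0.076) and for Scg2 in DESeq2 (0.21). The cause of these shifts was not tested.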
